A study of Homo sapiens with 6 samples.

Results

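The 39 genes described here encode endoplasmic reticulum (ER) chaperones and the machinery of the unfolded protein response (UPR). They were chosen by symbol, with earlier results of these data known, and all 39 were found among the 58302 genes of the deposited table. HCT116 cells, an established human colorectal cancer line, were transiently transfected with an siRNA against SLCO1B3, a transporter of organic anions (si-SLCO1B3), or with a negative control siRNA (si-NC), and their RNA was sequenced. Each group had 3 libraries, numbered 1, 3 and 5, and the time after transfection was not given in the sources used here. The labels give each of the si-SLCO1B3 libraries its own siRNA sequence, whereas the methods of the study name a single one, so which siRNA each library received is uncertain. By the study's account, the sequence labelled to number 3 did not effectively reduce SLCO1B3, and the study did not carry it into its further experiments. SLCO1B3 was highest in that library among the si-SLCO1B3 libraries, and without it, too, 0 of the 39 genes passed the test below. Neither source says what the numbers stand for or whether the libraries of a group came from separate cultures, so p-values measure the spread between these libraries, which may be technical. The 39 genes were compared between si-SLCO1B3 and si-NC, and between the libraries numbered 5 and those numbered 1 and 3 with the siRNA group as a covariate.

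Secreted and membrane proteins enter the ER through the SEC61 channel and fold there with the help of HSP70 and HSP90 chaperones, of lectin chaperones that bind their sugars and of protein disulfide isomerases that set their disulfide bonds. When unfolded proteins accumulate, the sensors IRE1 (gene ERN1), PERK (gene EIF2AK3) and ATF6 leave the chaperone BiP (gene HSPA5) and signal. IRE1 splices the XBP1 messenger RNA, PERK slows translation, and ATF6 is cut in the Golgi and moves to the nucleus. The factors that result raise the chaperones, the exporters and the genes of ER-associated degradation (ERAD), which returns misfolded proteins to the cytosol for destruction. The splicing of XBP1 and the cleavage of ATF6 were not measured by these counts of whole genes.

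The DNA elements through which ATF6 and XBP1 are known to act are shown first, because they tie the chaperones to the sensors of the same list. The ER stress response element (ERSE) is CCAAT, a spacer of 9 bases and CCACG. It was searched on both strands of RefSeq promoter windows of GRCh38.p14, from 250 bases before to 50 bases after each gene's start. Windows were at hand for 36 of the 39 genes, and not for DERL1, PDIA3 and SEC24D. Capitals mark the element, lower case the spacer, and each line is written 5′ to 3′ on the strand of the match.
HSPA5 ERSE: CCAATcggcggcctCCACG
HSP90B1 ERSE, first: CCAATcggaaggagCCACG
HSP90B1 ERSE, second: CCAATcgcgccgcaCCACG
CALR ERSE: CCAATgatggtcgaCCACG
CANX ERSE: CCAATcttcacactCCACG
CRELD2 ERSE: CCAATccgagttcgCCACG
XBP1 ERSE: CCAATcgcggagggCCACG
ERO1B ERSE: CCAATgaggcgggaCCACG
These elements lie at chr9:125241391-125241409 on the minus strand for HSPA5, at chr12:103930216-103930234 on the plus strand and chr12:103930321-103930339 on the minus strand for HSP90B1, at chr19:12938384-12938402 on the minus strand for CALR and at chr5:179698778-179698796 on the plus strand for CANX. Those of CRELD2, XBP1 and ERO1B lie at chr22:49918554-49918572 on the minus strand, chr22:28800603-28800621 on the minus strand and chr1:236282183-236282201 on the plus strand.

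An exact ERSE was found in 7 of the 36 windows (19.4%), against 22 of all 27305 windows (0.0806%). With 1 mismatch allowed outside the spacer it was found in 15 windows of the list (41.7%) and in 1.59% of all windows. The related ERSE-II is ATTGG, 1 base and CCACG, and its matches are shown because they belong to chaperone and ERAD genes without an exact ERSE.
HERPUD1 ERSE-II: ATTGGgCCACG
HYOU1 ERSE-II, both copies: ATTGGaCCACG
SDF2L1 ERSE-II: ATTGGtCCACG
They lie at chr16:56932025-56932035 on the plus strand for HERPUD1, at chr11:119057274-119057284 and chr11:119057380-119057390 on the plus strand for HYOU1, and at chr22:21642114-21642124 on the minus strand for SDF2L1. ERSE-II was found in these 3 windows (8.3%) and in 0.0549% of all windows. The core of the UPR element bound by XBP1, TGACGTGG, was found in 2 windows (5.6%), those of DNAJC10 and HYOU1, and in 0.795% of all windows, and the HYOU1 match overlaps one of its ERSE-II copies. Positions were counted from the RefSeq start, and the matches of CANX, CRELD2, DNAJC10 and HSP90B1 lie inside the longer span that GENCODE 29 gives these genes. A match describes the letters of the window and no binding was measured. The elements are published ones of the UPR and the list was chosen for the UPR, so these shares are not independent evidence.

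Counts per library ran from 17290442 to 21278903, and the list took between 0.930% and 1.08% of them. All 39 genes had counts in each of the 6 libraries and passed the filter on low counts, which left 16414 genes to be tested. Levels below are counts scaled to a common library total by edgeR's TMM method (CPM), given for the libraries numbered 1, 3 and 5 in that order. SLCO1B3 was at 8.88, 14.2 and 20.7 CPM in si-NC, against 5.86, 9.16 and 3.15 CPM in si-SLCO1B3. Its groups overlapped, with a log2 fold change of -1.27 (SE 0.43, adjusted p = 0.9998 in edgeR's quasi-likelihood test, adjusted by the Benjamini-Hochberg method). The labelled cell type was checked by markers: all 8 epithelial markers were detected, with a summed level of 3866 to 5228 CPM. All 6 fibroblast markers were also detected, COL1A1 included, with summed levels of 209, 136 and 237 CPM in si-NC, against 118, 162 and 147 CPM in si-SLCO1B3. The 4 endothelial markers had a summed level between 3.53 and 6.77 CPM, and the part of any of these in the results on the list was not tested. In RNA of whole cultures, fewer cells of a type and less RNA per cell cannot be told apart.

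Scaled for gene length by the authors as FPKM, HSPA5 was the most abundant gene of the list. HSPA5 (ENSG00000044574, chr9:125234853-125241330 of GRCh38, minus strand) encodes BiP, the HSP70 of the ER, and its level was 367 ± 31.0 FPKM (SD, n = 3) in si-NC and 413 ± 61.2 FPKM (SD, n = 3) in si-SLCO1B3. The calcium-binding lectin chaperone CALR followed at 152 ± 7.09 and 158 ± 6.42 FPKM (SD, n = 3 each), and the ER HSP90 protein HSP90B1 at 153 ± 19.9 and 139 ± 6.27 FPKM (SD, n = 3 each). CALR and HSP90B1 did not differ in order beyond their spread. PDIA4, a disulfide isomerase, came next at 126 ± 13.01 and 130.1 ± 6.40 FPKM (SD, n = 3 each).

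At the other end were ERO1B, an oxidase that recharges disulfide isomerases, and DERL2, a component of the ERAD channel. ERO1B was at 1.92 ± 0.24 FPKM in si-NC and 1.87 ± 0.21 FPKM in si-SLCO1B3 (SD, n = 3 each), and DERL2 at 2.53 ± 0.16 and 2.41 ± 0.14 FPKM (SD, n = 3 each). The sensors lay in the lower part of the order except for ATF6, with 6-library means of 4.64 FPKM for ERN1, 4.62 FPKM for EIF2AK3 and 14.6 FPKM for ATF6. The order depends on the lengths used for FPKM. For P4HB, the beta subunit of prolyl hydroxylase and a disulfide isomerase, the length implied by its counts and FPKM was 14492 bases, against 5303 bases of merged exons in GENCODE 29.

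**Figure D1:**
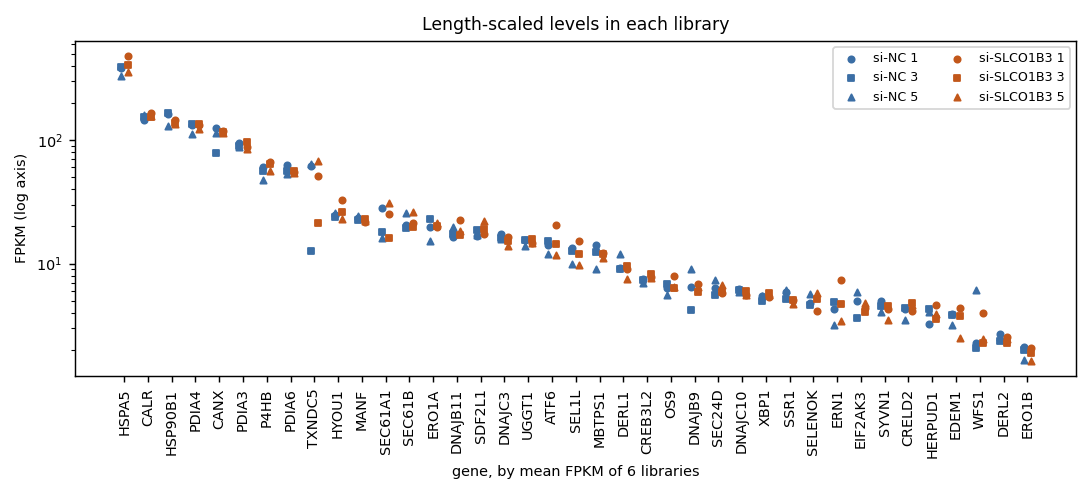
Length-scaled levels (FPKM, log axis) of the 39 genes in each library, ordered by the mean of the 6 libraries; blue points are si-NC and orange points si-SLCO1B3, with circles, squares and triangles for the libraries numbered 1, 3 and 5. HSPA5 stood highest and ERO1B lowest, and the points of both groups lay together for most genes, with TXNDC5 spread most widely.

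No ER chaperone or UPR gene was called different between si-SLCO1B3 and si-NC after adjustment. Neither was SLCO1B3 itself, although its unadjusted interval, given above, left out 0. Of the 39 genes, 0 passed an adjusted p of 0.05 in si-SLCO1B3 against si-NC, where 0 of 16414 genes did (0%). At an unadjusted p under 0.05 the list also held 0 genes, against 716 of all genes tested (4.36%). DESeq2 called 24 genes and the likelihood ratio test of edgeR 16 genes, with 0 of the list in either. The groups did not overlap, with si-SLCO1B3 higher, for 1 gene of the list, CREB3L2, where 5.01% of all genes did so, and with si-SLCO1B3 lower for 2 genes, DNAJC10 and SSR1, where 5.50% did. Within all 3 pairs of libraries with the same number, si-SLCO1B3 was higher for 6 genes, CREB3L2, HSPA5, SDF2L1, PDIA4, P4HB and SEC61B, where 16.2% of all genes were, and lower for 6 genes, DNAJC3, DNAJC10, ERO1B, SYVN1, DERL2 and SSR1, where 16.0% were. The log2 fold changes were positive for 23 genes and negative for 16, with a median of 0.030, beside 0.0049 over all genes tested. That median was -0.015 without number 1 of si-SLCO1B3, -0.0024 without number 3 of si-NC and 0.098 without number 5 of si-NC. The edgeR adjusted p was 0.9998 for each of the 39 genes. The 95% interval of the fold change lay within a 2-fold change either way for 37 of them, the exceptions being TXNDC5 and WFS1. It did so for 12811 of the 16414 genes tested. Of the 10095 genes tested at or above the lowest mean level of the list, it did so for 9354.

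**Figure D2:**
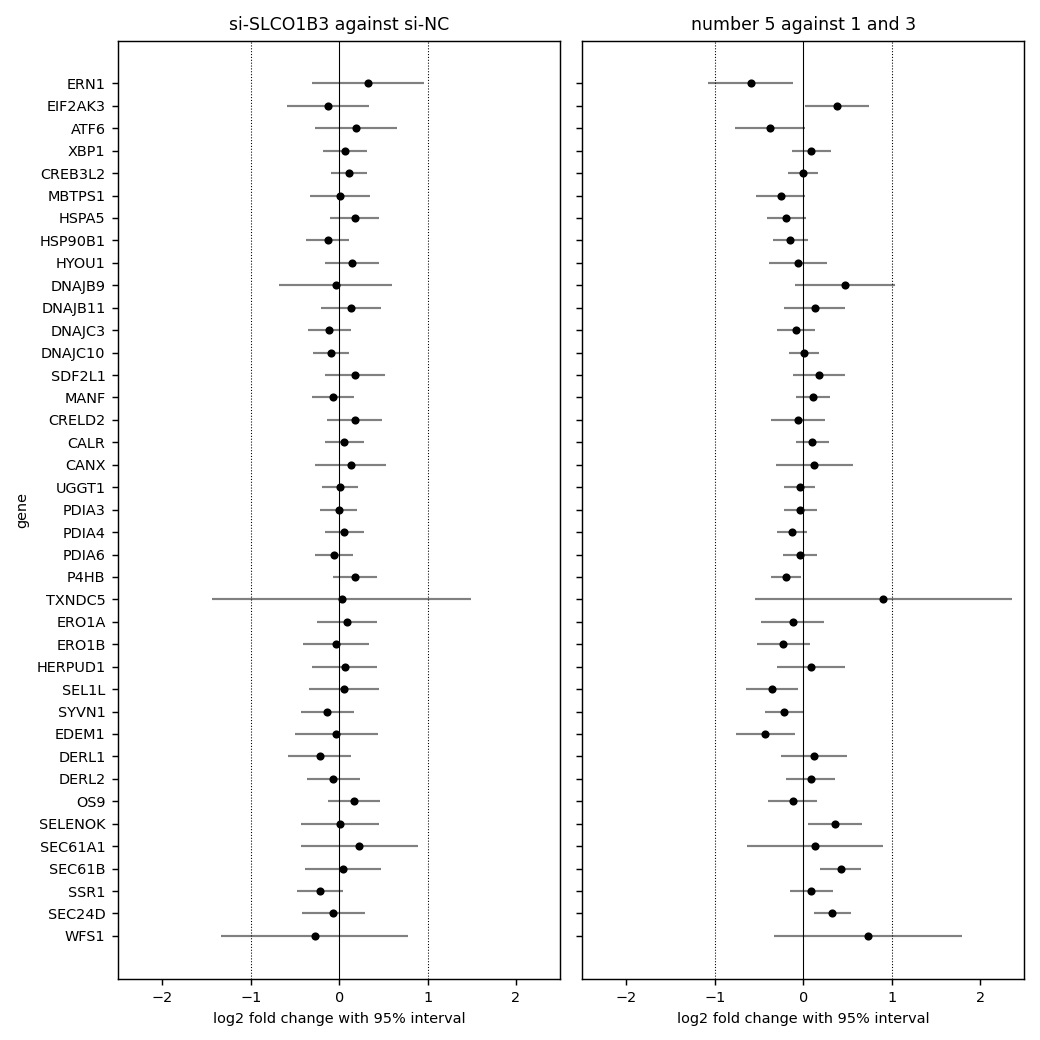
Log2 fold change (points) with its 95% interval (bars) for each of the 39 genes in si-SLCO1B3 against si-NC (left) and in the libraries numbered 5 against those numbered 1 and 3 (right); dotted lines mark a 2-fold change. On the left all intervals hold 0, and on the right the 8 genes whose interval leaves out 0 lie on both sides of it.

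Among the sensors and transcription factors, 5 of 6 log2 fold changes were positive and 0 passed the test. ERN1 (ENSG00000178607, chr17:64039142-64130819, minus strand), the kinase and nuclease that splices XBP1, had 51.9, 59.4 and 40.5 CPM in si-NC, against 89.8, 56.9 and 43.9 CPM in si-SLCO1B3. A single library, si-SLCO1B3 number 1, was high, and the groups overlapped. ERN1 had the largest absolute log2 fold change of the list, 0.33 (SE 0.27), which was -0.0062 without that library.

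ATF6, the sensor that becomes a transcription factor, was lowest in number 5 within each group, while the order of numbers 1 and 3 differed. Its values were 109.7, 119 and 96.9 CPM in si-NC, against 162, 112 and 96.1 CPM in si-SLCO1B3, with number 1 of si-SLCO1B3 again above the rest. The log2 fold change of ATF6 was 0.19 (SE 0.20), and -0.062 without that library. EIF2AK3, which encodes the kinase PERK, had 37.7, 27.8 and 46.7 CPM in si-NC, against 33.6, 30.9 and 38.1 CPM in si-SLCO1B3. The si-SLCO1B3 values of EIF2AK3 fell within the si-NC range (log2 fold change -0.13, SE 0.20).

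XBP1, the factor downstream of IRE1, was among the steadier genes. It had 53.0, 48.8 and 55.8 CPM in si-NC, against 52.6, 56.2 and 56.3 CPM in si-SLCO1B3, and the groups overlapped (log2 fold change 0.066, SE 0.11). CREB3L2, a factor of the OASIS family that is cleaved as ATF6 is, had 127, 124 and 124 CPM in si-NC, against 132, 137 and 135 CPM in si-SLCO1B3. The 3 si-SLCO1B3 values of CREB3L2 lay above the 3 si-NC values by a small step, with a log2 fold change of 0.11 (SE 0.087, adjusted p = 0.9998 by edgeR). MBTPS1, the Golgi protease that makes the first cut in ATF6, was at 149 to 219 CPM in si-NC, against 183 to 193 CPM in si-SLCO1B3.

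The HSP70 and HSP90 chaperones and their co-chaperones split evenly, 5 with a positive and 5 with a negative log2 fold change, and 0 of 10 passed the test. HSPA5 had 1459, 1498 and 1338 CPM in si-NC, against 1856, 1552 and 1438 CPM in si-SLCO1B3. The groups overlapped, since number 5 of si-SLCO1B3 lay below 2 of the si-NC libraries, and the log2 fold change was 0.17 (SE 0.12, 95% interval -0.10 to 0.45). HYOU1, a large HSP70-like exchange factor of BiP, had 383, 371 and 420.3 CPM in si-NC, against 512, 409 and 377 CPM in si-SLCO1B3. As for HSPA5, number 1 of si-SLCO1B3 was the highest library, and the log2 fold change was 0.14 (SE 0.13). HSP90B1, also called GRP94, had 1233, 1256 and 1033 CPM in si-NC, against 1115, 1044 and 1060 CPM in si-SLCO1B3. The spread of HSP90B1 within si-NC covered the si-SLCO1B3 values (log2 fold change -0.13, SE 0.10).

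DNAJB9, a J-domain co-chaperone of BiP that holds IRE1 in check, varied most in this group of genes. It had 23.0, 15.2 and 34.0 CPM in si-NC, against 24.8, 21.1 and 24.5 CPM in si-SLCO1B3. The lowest and the highest libraries were both si-NC, and the log2 fold change of DNAJB9 was -0.039 (SE 0.27), with a sign that turned under other settings. SDF2L1, which forms a complex with J-domain proteins, had 24.3, 26.8 and 25.6 CPM in si-NC, against 25.3, 27.7 and 33.6 CPM in si-SLCO1B3. The highest SDF2L1 value was number 5 of si-SLCO1B3 and the others overlapped (log2 fold change 0.18, SE 0.14). CRELD2, a soluble ER protein induced by stress, had 31.7, 32.3 and 27.0 CPM in si-NC, against 30.9, 35.7 and 36.1 CPM in si-SLCO1B3. Its groups overlapped through number 1 of si-SLCO1B3 (log2 fold change 0.17, SE 0.13).

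DNAJC10, a J-domain protein that reduces disulfides of ERAD substrates, was 1 of the 2 genes of the list whose si-SLCO1B3 values all lay below si-NC. It had 175, 171 and 175 CPM in si-NC, against 158, 168 and 163 CPM in si-SLCO1B3. The step was small, with a log2 fold change of -0.090 (SE 0.087, adjusted p = 0.9998 by edgeR). Of the other members of the group, the J-domain co-chaperones DNAJB11 and DNAJC3 ranged over 119 to 166 CPM and 95.7 to 116 CPM, and MANF, a secreted protein that binds BiP, over 75.4 to 88.8 CPM, each with overlap between the groups.

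The lectin chaperones CALR and CANX, and UGGT1, an enzyme grouped with them, had positive log2 fold changes, and 0 of these 3 passed the test. CALR, calreticulin, had 699 CPM, 739 CPM and 805 CPM in si-NC, against 805, 736 and 793 CPM in si-SLCO1B3, and the ranges nearly coincided (log2 fold change 0.057, SE 0.095). CANX, its membrane-bound partner calnexin, stood at 1183 to 1264 CPM in 5 libraries and at 796 CPM in number 3 of si-NC, a value singled out after it was seen. UGGT1, the glucosyltransferase that tags misfolded glycoproteins for another round of folding, was the steadiest gene of the list, at 206 to 223 CPM, with a highest library 1.08 times the lowest. The log2 fold change of UGGT1 was 0.0095 (SE 0.089).

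Of the 7 disulfide isomerases and oxidases, 4 had positive and 3 negative log2 fold changes, and 0 passed the test. PDIA4 had 481, 482 and 419.7 CPM in si-NC, against 485, 486 and 465 CPM in si-SLCO1B3, and the groups overlapped (log2 fold change 0.055, SE 0.095). P4HB had 864, 806 and 707 CPM in si-NC, against 948, 905 and 835 CPM in si-SLCO1B3, a log2 fold change of 0.18 (SE 0.11) with overlap between the groups. PDIA3, the isomerase that works with the lectin chaperones, stayed between 479 and 526 CPM, and PDIA6, an isomerase that also acts on IRE1, between 333 and 377 CPM. The oxidase ERO1A ranged from 166 to 241 CPM and its homologue ERO1B from 9.80 to 12.04 CPM.

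TXNDC5, a disulfide isomerase with thioredoxin domains, had the widest range of the list, 5.60 times from lowest to highest. It had 313, 64.4 and 341 CPM in si-NC, against 264, 109 and 361 CPM in si-SLCO1B3. Both low values were the libraries numbered 3. TXNDC5 lies at chr6:7881517-7910814 of GRCh38 on the minus strand, and 2658 of its 4387 exon bases belong as well to the readthrough gene BLOC1S5-TXNDC5. That gene had 3462 counts in number 3 of si-NC, 4065 counts in number 3 of si-SLCO1B3 and 0 counts in the other 4 libraries. With the counts of both genes summed, a step chosen after the values were seen, the libraries held 313, 261 and 341 CPM in si-NC, against 264, 315 and 361 CPM in si-SLCO1B3. The summed value of number 3 of si-NC was the lowest, close to number 1 of si-SLCO1B3, and that of number 3 of si-SLCO1B3 lay among the others, while the level of TXNDC5 alone is uncertain in all 6 libraries.

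**Figure D3:**
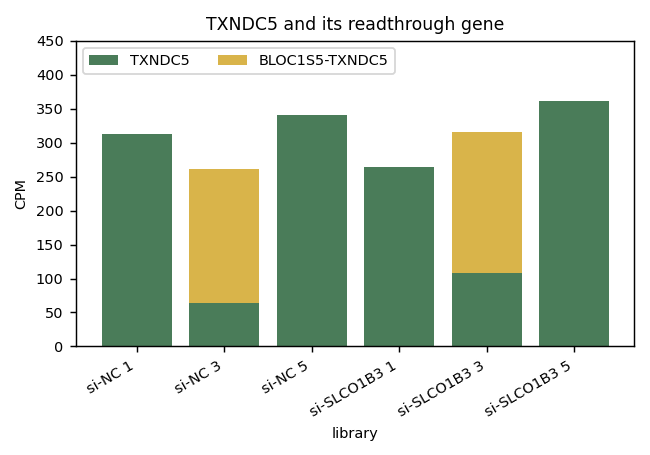
CPM assigned to TXNDC5 (green) and to the readthrough gene BLOC1S5-TXNDC5 (yellow), stacked for each library. The readthrough gene had counts in the libraries numbered 3 alone, and the stacked bars lay between 261 and 361 CPM.

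Among the 8 ERAD genes the signs were even, 4 positive and 4 negative, and 0 passed the test. HERPUD1, a membrane protein that gathers the ERAD complex, had 40.4, 52.9 and 52.4 CPM in si-NC, against 57.2, 43.9 and 50.6 CPM in si-SLCO1B3. The groups overlapped, with number 1 lowest in si-NC and highest in si-SLCO1B3 (log2 fold change 0.059, SE 0.16). The ubiquitin ligase SYVN1 and its partner SEL1L ranged over 45.1 to 60.7 CPM and 108 to 162 CPM, and EDEM1, a lectin that delivers glycoproteins to ERAD, over 23.4 to 39.5 CPM. DERL2, OS9, a lectin that reads trimmed sugars, and SELENOK, a selenoprotein of the ER membrane, also overlapped between the groups, at 21.6 to 25.8 CPM, 83.9 to 116 CPM and 14.8 to 21.8 CPM. SYVN1 shares 398 exon bases on the same strand with FAU, so its counts may hold reads of that gene or miss reads given to it.

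Of the 5 genes of translocation, export and calcium, 2 had positive and 3 negative log2 fold changes, and 0 passed the test. SSR1, a subunit of the translocon-associated complex, had 100.4 CPM, 88.5 CPM and 110.1 CPM in si-NC, against 86.9, 86.5 and 84.2 CPM in si-SLCO1B3. All 3 si-SLCO1B3 values lay below si-NC, with a log2 fold change of -0.21 (SE 0.11, adjusted p = 0.9998 by edgeR). SEC61A1, the pore subunit of the translocation channel, ranged from 166 to 330.4 CPM with no order by group. It shares 344 exon bases with RUVBL1 on the opposite strand, which had 3177 to 4438 counts. In all, 19 of the 39 genes share exon bases with a gene of the opposite strand, and whether the counting used strand was not given in the sources used here.

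**Figure D4:**
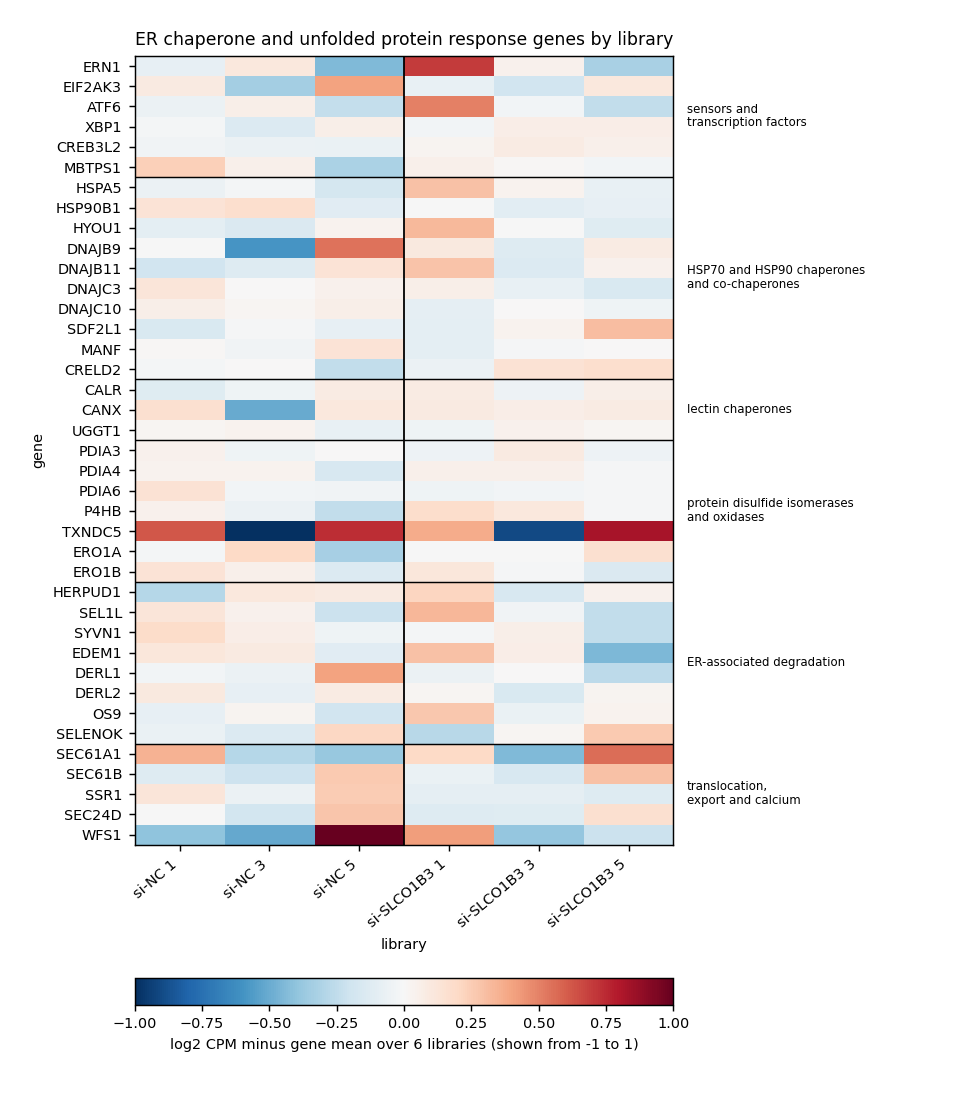
Log2 CPM of each gene minus its mean over the 6 libraries, from blue (lower) to red (higher), with genes ordered by role and a line between the si-NC and si-SLCO1B3 libraries. No block of genes changes colour at the line; TXNDC5 was low in both libraries numbered 3, WFS1 high in number 5 of si-NC, and ERN1 and ATF6 high in number 1 of si-SLCO1B3.

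Single libraries set the extremes of several genes in the map of values by library. Number 1 of si-SLCO1B3 was the highest library for 10 of the 39 genes (25.6%), ERN1, ATF6, HSPA5 and HYOU1 among them, where it was highest for 20.4% of all genes tested. The list lay further from all genes in 2 control libraries. Number 1 of si-NC was highest for 8 genes (20.5%) against 12.1% of all genes, and number 3 of si-NC for 2 genes (5.13%) against 14.1%. Over the whole list, however, the median log2 ratio of a library to the gene means stayed between -0.035, in number 3 of si-NC, and 0.048, in number 1 of si-SLCO1B3. The highest library was 1.38 times the lowest for the median gene of the list. That ratio was 1.42 for the median of the 10095 genes tested at or above the lowest mean level of the list, and 1.57 for all genes tested.

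The 10 genes with an ERSE or ERSE-II in the promoter windows printed above did not stand outside the range of the others. Their log2 fold changes in si-SLCO1B3 against si-NC ran from -0.13 to 0.18 with a median of 0.098, and 8 were positive. The 26 genes whose windows held neither element ran from -0.28 to 0.33 with a median of 0.0087, and 15 were positive. In the comparison by library number the medians were 0.012 for the 10 genes and -0.023 for the 26. These are descriptions with no test.

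The libraries numbered 5 differed from those numbered 1 and 3 across many genes, and the ER genes lay on both sides without passing the adjusted test. With the group as a covariate, 807 of 16414 genes had an adjusted p under 0.05 (4.92%), and 0 of the 39 genes did. The 807 genes became 0 without number 5 of si-NC, 6 without number 5 of si-SLCO1B3 and 4 to 14 without any single one of the other libraries, while DESeq2 called 2071. At an unadjusted p under 0.05 the list held 8 genes, 4 higher and 4 lower in number 5, which is 20.5% of the list against 29.1% of all genes. In CPM, both libraries numbered 5 lay above the 4 others for 5 genes of the list, where 18.7% of all genes did so, and below them for 9 genes, where 19.9% did. The median log2 fold change of the list was -0.0085, beside -0.010 over all genes tested. It was 0.041 over the 10095 genes tested at or above the lowest mean level of the list. Of these 10095, both libraries numbered 5 lay above the 4 others for 2421 genes and below them for 1708. The TMM factors moved with the number as well, at 0.970 for both libraries numbered 5 and 1.01 to 1.02 for the others, and their part in these differences was not tested. By the labels, number 5 of si-SLCO1B3 also has its own siRNA sequence, so number and sequence cannot be told apart within that group.

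Of the 5 genes of translocation, export and calcium, SEC61B and SEC24D lay higher in both libraries numbered 5. SEC61B (ENSG00000106803, chr9:99222064-99230615, plus strand), the small beta subunit of the SEC61 channel, had 26.9 and 25.5 CPM in numbers 1 and 3 of si-NC and 28.1 and 26.3 CPM in those of si-SLCO1B3, against 35.4 and 36.1 CPM in number 5. Both number 5 values were above every other library, with a log2 fold change of 0.42 (SE 0.094, adjusted p = 0.058 by edgeR). SEC24D (ENSG00000150961, chr4:118722823-118838683, minus strand), a cargo-binding subunit of the COPII coat that carries proteins out of the ER, had 86.9 and 76.9 CPM in numbers 1 and 3 of si-NC and 79.7 and 80.2 CPM in those of si-SLCO1B3, against 105.9 and 97.4 CPM in number 5. Again the 2 sets did not overlap, with a log2 fold change of 0.33 (SE 0.085, adjusted p = 0.075 by edgeR). DESeq2 gave SEC61B an adjusted p of 0.011 and SEC24D one of 0.027, and over all the settings tried the adjusted p ran up to 0.28 and 0.31. The other genes of this role, SEC61A1, SSR1 and WFS1, had positive log2 fold changes over both groups, but within the groups that of SEC61A1 was -0.45 in si-NC, and those of SSR1 and WFS1 were -0.042 and -0.29 in si-SLCO1B3.

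Among the 8 ERAD genes of the list, SELENOK alone had both libraries numbered 5 above the rest. Of 23 further ERAD genes tested, 5 lay above and 2 below in both, where 18.7% and 19.9% of all genes did. SELENOK had 17.2 and 16.4 CPM in numbers 1 and 3 of si-NC and 14.8 and 18.3 CPM in those of si-SLCO1B3, against 21.01 and 21.78 CPM in number 5. Its log2 fold change was 0.36 (SE 0.13, adjusted p = 0.13 by edgeR). EIF2AK3 showed a similar size, 0.38 (SE 0.15, adjusted p = 0.16 by edgeR), with 46.7 and 38.1 CPM in number 5 against 27.8 to 37.7 CPM in the others. The 2 sets of EIF2AK3 were close, since number 1 of si-NC came within 1 CPM of number 5 of si-SLCO1B3. TXNDC5 was above the others in number 5 with and without its readthrough counts, and its log2 fold change without them, 0.90 (SE 0.60), includes the low number 3 libraries.

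Of the ERAD genes of the list, EDEM1, SEL1L and SYVN1 lay lower in both libraries numbered 5. EDEM1 had 34.9 and 34.3 CPM in numbers 1 and 3 of si-NC and 39.5 and 33.6 CPM in those of si-SLCO1B3, against 29.6 and 23.4 CPM in number 5. Both number 5 values were below the rest, with a log2 fold change of -0.43 (SE 0.14, adjusted p = 0.11 by edgeR). SEL1L had 139.6 CPM, 133 CPM, 162 CPM and 125 CPM in those same 4 libraries and 110.5 and 108 CPM in number 5 (log2 fold change -0.35, SE 0.12, adjusted p = 0.12 by edgeR). For SYVN1, the ligase that SEL1L holds, number 5 was also lowest, with a log2 fold change of -0.21 (SE 0.091).

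The sensors ERN1 and ATF6 were lowest in number 5 within each group. ERN1 was at 40.5 and 43.9 CPM there, against 51.9 to 89.8 CPM in the other libraries, a log2 fold change of -0.60 (SE 0.20, adjusted p = 0.12 by edgeR). ATF6 was at 96.9 and 96.1 CPM, against 109.7 to 162 CPM, a log2 fold change of -0.37 (SE 0.16, adjusted p = 0.19 by edgeR). MBTPS1, whose protease cuts ATF6, was at 149 and 183 CPM, against 188 to 219 CPM, a log2 fold change of -0.26 (SE 0.12, adjusted p = 0.20 by edgeR). EIF2AK3 lay on the other side, so the 3 sensors did not share a direction by library number.

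The chaperones, isomerases and oxidases had log2 fold changes between -0.23 and 0.18 in number 5, DNAJB9 and TXNDC5 apart. HSPA5 was at 1338 and 1438 CPM in number 5 against 1459 to 1856 CPM in the others, without overlap but with a log2 fold change of -0.19 (SE 0.092, adjusted p = 0.22 by edgeR). PDIA4 and ERO1B also lay below the rest in both number 5 libraries, with log2 fold changes of -0.13 (SE 0.069) and -0.23 (SE 0.12). P4HB had an unadjusted p under 0.05 with a log2 fold change of -0.19 (SE 0.072, adjusted p = 0.14 by edgeR), and its sets overlapped. HSP90B1 had a log2 fold change of -0.15 (SE 0.083) and DNAJB9 one of 0.47 (SE 0.23), both with overlap.

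**Figure D5:**
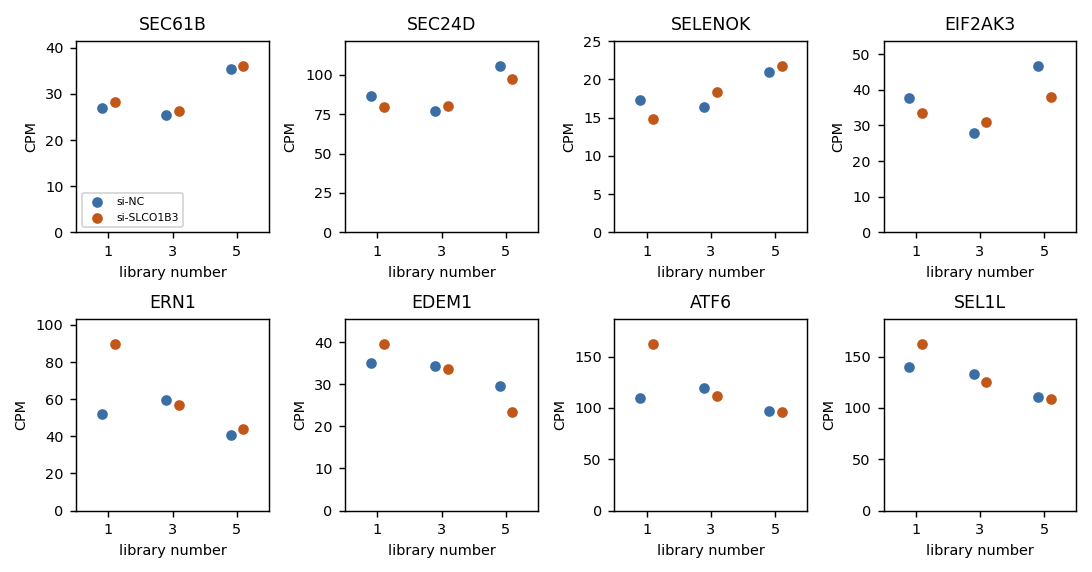
CPM of 8 genes by library number, blue for si-NC and orange for si-SLCO1B3, with axes from 0. In the libraries numbered 5, SEC61B, SEC24D, SELENOK and EIF2AK3 lay above and ERN1, EDEM1, ATF6 and SEL1L below the libraries numbered 1 and 3.

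The difference by number was also compared between the groups. By the labels, the si-SLCO1B3 libraries differ in siRNA sequence as well as in number, while the si-NC libraries share their sequence. Number and siRNA sequence therefore cannot be told apart within si-SLCO1B3, nor in this comparison. Of 16414 genes, 2 differed at an adjusted p under 0.05 (0.0122%), and 0 of the 39 genes did. At an unadjusted p under 0.05 the list held 3 genes, 7.69% of it, against 4.56% of all genes: WFS1, DERL1 and ERO1A, singled out after their values were seen. WFS1, an ER membrane protein of calcium balance, had 18.1, 16.8 and 51.7 CPM in si-NC, against 32.4, 18.3 and 20.7 CPM in si-SLCO1B3. Number 5 of si-NC was high, and the differences by number were 1.57 in si-NC and -0.29 in si-SLCO1B3 on the log2 scale. DERL1, a component of the ERAD channel, had 104, 102 and 140.3 CPM in si-NC, against 102, 106 and 88.4 CPM in si-SLCO1B3, again with number 5 of si-NC above the rest. ERO1A had 208, 241 and 166 CPM in si-NC, against 209, 209.6 and 235 CPM in si-SLCO1B3, where number 5 of si-NC was lowest. The edgeR adjusted p of the difference between the groups was 0.73 or more for all 39 genes.

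The rest of the pathway was described by 127 further genes in 7 lists, of which 123 were tested. In si-SLCO1B3 against si-NC, 0 of 123 passed the adjusted test, and at an unadjusted p under 0.05 there were 3 higher and 4 lower, or 5.69% against 4.36% of all genes. The smallest unadjusted p belonged to FKBP9, a prolyl isomerase of the ER, at 45.4, 51.4 and 37.7 CPM in si-NC, against 26.1, 32.6 and 31.3 CPM in si-SLCO1B3. Its groups did not overlap, and the log2 fold change was -0.58 (SE 0.16, adjusted p = 0.9998 by edgeR).

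By library number, 4 of the 123 genes passed the adjusted test, 3.25% against 4.92% of all genes. Their adjusted p lay just under 0.05, and the calls by number depended on single libraries, as given above. SSR3, the gamma subunit of the complex that holds SSR1, was at 219 and 192 CPM in number 5 against 135 to 168 CPM in the others, a log2 fold change of 0.47 (SE 0.086, adjusted p = 0.044 by edgeR). SEC31A, of the outer COPII coat that assembles over SEC24D, was at 171 and 151 CPM against 95.7 to 123 CPM, a log2 fold change of 0.53 (SE 0.10, adjusted p = 0.047 by edgeR). TRIB3, of the PERK and CHOP list, is a pseudokinase induced by ATF4 and CHOP. It was at 39.9 and 63.7 CPM in number 5 against 83.6 to 227 CPM, and fell by 1.52 on the log2 scale (SE 0.30, adjusted p = 0.048 by edgeR). CEBPB, a transcription factor of the same list, was at 47.7 and 45.9 CPM against 65.3 to 88.7 CPM, and fell by 0.68 on the log2 scale (SE 0.13, adjusted p = 0.045 by edgeR).

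All 9 genes of the PERK and CHOP list had negative log2 fold changes in number 5, with a median of -0.59 and 2 past the adjusted test. Of the 16 genes of COPII coat and cargo, 15 had positive ones, with a median of 0.25 and 1 past the test, and of the 28 of translocation and N-glycosylation 19 were positive, with a median of 0.093 and 1 past the test. The 26 other folding factors had a median of -0.12, with 8 positive and 0 past the test. Medians of the remaining lists were -0.026 over 14 disulfide isomerases, -0.012 over 23 ERAD genes and 0.027 over 7 sensors, OASIS factors and proteases, all with 0 past the test. The median over all genes tested was -0.010, and no list was set against it by a test. The lists were chosen with earlier results of these data known. The activity of PERK was not measured, and its gene EIF2AK3 had a log2 fold change of 0.38 in number 5.

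Gene length moved with the comparison by number. The genes tested were split into 4 classes of equal size by the length implied by the FPKM. In the class of the shortest genes the median log2 fold change in number 5 was 0.030, and in that of the longest it was -0.061. The shortest class held 2 genes of the list, SEC61B and SDF2L1, with a median of 0.30, and the longest held 13, with a median of -0.042. The part of length in these differences was not tested.

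Seed sites of the siRNAs were looked for in the 3′ UTR, taking the longest one that GENCODE 29 gives for each gene. The site AATCATT, which pairs with bases 2 to 8 of the guide that the labels give to number 3 of si-SLCO1B3, was present in 9 of the 39 genes: ATF6, CANX, DERL1, DNAJC10, EDEM1, ERN1, ERO1A, HERPUD1 and SSR1. The median of their log2 fold changes in si-SLCO1B3 against si-NC was 0.060, beside 0.020 for the 30 without the site. These fold changes, and those below, pool all si-SLCO1B3 libraries, whereas the labels give each guide to a single library. The effect of a guide in its own library was not tested. Genes with and without a site were not matched for 3′ UTR length, and its part was not tested. In the list that length ran from 123 bases for SDF2L1 to 17332 bases for DNAJC10. Among 13203 genes tested with a 3′ UTR, 18.8% held the site, with a median of -0.087 against 0.027 without it. For the site of the guide labelled to number 1 the medians of the list were -0.012 in 8 genes with it and 0.044 without, and for that of number 5 they were 0.088 in 7 genes with it and 0.0087 without. Over all genes, 18.6% held the site of number 1, with medians of -0.011 with it and 0.011 without, and 10.8% that of number 5, with medians of -0.028 and 0.012.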

How the data were processed

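RNA-seq was available for 6 HCT116 libraries, grouped by the siRNA in the labels. The authors deposited, for 58302 genes, whole-number read counts without normalization and FPKM values made from them. The submitters' processing notes name CASAVA 1.8, fastp 0.19.5, HISAT2 2.1.0, edgeR and hg38/GRCh38, while the counting program and its strand setting were not given in the sources used here. FPKM were used for levels and for the gene length they imply. The authors' files held no comparison columns. Gene IDs matched GENCODE 29 for 99.55% of genes.

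Tests on the counts were run with edgeR 4.0.16 (R 4.3.3), using TMM scaling, filterByExpr (minimum count 10, minimum total 15), the quasi-likelihood test and Benjamini-Hochberg adjustment over 16414 genes, with a call at an adjusted p under 0.05. The comparison by library number had the group as covariate, and its difference between groups was an interaction with 2 residual degrees of freedom. The SE is the absolute log2 fold change over the square root of F. The biological coefficient of variation was 21.6%, and 16.8% with the number 5 term. Log2 ratios of CPM used a pseudocount of 0.5. No library was a copy of another, as at least 24501 genes differed in counts between any 2. Counting precision follows from 17290442 to 21278903 counts per library. Methods were tested on simulated data.

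Library numbers occur in both groups. Deviations from the group means, correlated across genes, gave r = 0.12, 0.17 and 0.46 for numbers 1, 3 and 5. For different numbers r was -0.36 to 0.27, so only number 5 lay above that range. The main test of si-SLCO1B3 against si-NC did not pair the libraries, and the replicate block did so as an alternative. Genes are not independent replicates.

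Alternatives were DESeq2 1.42.0, its size factors, limma-voom (limma 3.58.1), the likelihood ratio test, other count filters, leaving out each library, the replicate block, no group term and the difference by number within each group. Summing TXNDC5 with its readthrough gene and leaving out libraries in the interaction were added after the data were seen. The members, lists and roles were chosen with earlier results of these data known. Values by library are given for HSPA5, HSP90B1, DNAJB9, SDF2L1, HYOU1, PDIA4, CALR, CRELD2, HERPUD1, XBP1, ATF6, ERN1 and EIF2AK3, for members past the adjusted test, and for up to 5 higher and 5 lower members of largest fold change without overlap. Genes of other lists are named past the adjusted test, or otherwise the gene of smallest p. Sequences are from RefSeq (GRCh38.p14), matched by symbol in Python 3.11.15 with pandas 2.3.3, and figures were drawn with matplotlib 3.10.9. The authors' FPKM divide counts by a gene length, so order between genes depends on it. The summed level of a further list of cell type markers is not reported here.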

Additional observations from a re-analysis of the deposited data

How the results depend on the processing

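Under all alternatives tried for si-SLCO1B3 against si-NC, 0 of the 39 genes had an adjusted p under 0.05. The number of all genes called was 24 with DESeq2, 16 with the likelihood ratio test and 0 to 4 when 1 library was left out. The median log2 fold change of the list ran from -0.0147, without number 1 of si-SLCO1B3, to 0.0981, without number 5 of si-NC, and was -0.00241 without number 3 of si-NC. The replicate block called 0 genes, with 1175 at an unadjusted p under 0.05 of which 0 were on the list, and changed no call. In the comparison by number, genes called were 2071 with DESeq2 and 1892 with the likelihood ratio test, 7 within si-NC, 0 within si-SLCO1B3, and 0 to 14 when 1 library was left out, where few residual degrees of freedom remain. DESeq2 called 2 genes of the list there, SEC61B and SEC24D. The difference by number between groups was called for 0 to 6 genes when 1 library was left out. With 1 mismatch the ERSE was in 15 genes of the list.

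Signs turned for a few single genes, with 0 calls among them and the cause not tested. DNAJB9 was at 0.0307 with limma-voom and 0.0294 with the replicate block. By number within si-SLCO1B3 alone, DERL1 was at -0.237, ERO1A at 0.166 and WFS1 at -0.295. Leaving out 1 library, si-SLCO1B3 against si-NC gave -0.0623 to 0.337 for ATF6, -0.281 to 0.296 for DNAJB9, -0.302 to 0.0658 for EIF2AK3, -0.00623 to 0.535 for ERN1, -0.0575 to 0.155 for HERPUD1, -0.00555 to 0.089 for PDIA4, -0.419 to 0.388 for TXNDC5 and -0.567 to 0.449 for WFS1. By number it gave -0.229 to 0.446 for DERL1, -0.431 to 0.173 for ERO1A and -0.288 to 1.57 for WFS1.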
